A study of Mus musculus with 2 samples.

Results

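Cells of the Idoxuridine-treated library were selected on their count of 1 transcript: they were divided by whether they carried mRNA of Brachyury, the product of the gene with the symbol T. Every cell with at least 23500 unique molecular identifiers (UMIs, each standing for 1 captured mRNA molecule) was reduced at random to 23500, so that deep and shallow cells had the same chance of showing T. Of the 742 cells of the library, 648 reached that depth, and 129 of these had 1 or more T UMIs (called T-positive here) while 519 had 0 (T-zero). The 2 libraries of the study held 1553 cells. Because T chose the sides, T itself is only described, and all other genes were compared between the sides.

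The study profiled E14 cells, a male mouse embryonic stem cell line, by droplet single-cell RNA sequencing of mRNA 3′ ends in a series on noise-driven differences between cells. One library came from cells given Idoxuridine and one from cells given the solvent DMSO, both for 24 h and both in 2i/LIF medium without feeder cells on gelatin. Idoxuridine is a thymidine analogue that is built into DNA. The sample label gives its dose as 10 µM and the treatment text as 10 mM, and the labels give the strain as C57BL/6, whereas E14 lines are generally known as derived from 129 mice. The cells are 1 cell line, both libraries share the 2i/LIF medium, and the labels give about 3000 cells loaded per library. Each treatment is 1 library, so cells are not replicates and no test was possible. All intervals are 95% intervals for counting error alone, and the spread between cultures is unknown.

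Brachyury is a T-box transcription factor that marks the primitive streak, the furrow of the early embryo through which cells leave the epiblast to form mesoderm and endoderm. Wnt signalling switches it on: a Wnt ligand bound to Frizzled and Lrp receptors stops the breakdown of beta-catenin, which then acts with the Tcf and Lef factors on target genes, among them T, Axin2 and Sp5. The 2i medium contains an inhibitor of GSK3, the kinase that marks beta-catenin for breakdown, and so acts on the pathway below the receptor. Both libraries had this medium, and pathway activity itself was not measured. Embryonic stem cells in this medium are naive, and a small share of them can carry mRNA of lineage genes.

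The regions just upstream of T and of a pair of textbook Wnt targets, Sp5 and Axin2, are shown because the comparison turns on genes of this kind. Each run is the 250 bases before the gene's start in RefSeq (GRCm38.p6), on the gene's own strand, 5′ to 3′. Capitals mark core letters of the Tcf/Lef binding motif on either strand, namely CTTTG followed by AA, AT, TA or TT. The windows are chr17:8434173-8434422 for T, chr2:70474673-70474922 for Sp5 and chr11:108920099-108920348 for Axin2, all on the plus strand.
T: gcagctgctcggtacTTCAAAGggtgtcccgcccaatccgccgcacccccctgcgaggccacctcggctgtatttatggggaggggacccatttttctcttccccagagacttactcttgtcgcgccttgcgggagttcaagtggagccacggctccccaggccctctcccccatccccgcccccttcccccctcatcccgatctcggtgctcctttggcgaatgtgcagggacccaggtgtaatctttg
Sp5: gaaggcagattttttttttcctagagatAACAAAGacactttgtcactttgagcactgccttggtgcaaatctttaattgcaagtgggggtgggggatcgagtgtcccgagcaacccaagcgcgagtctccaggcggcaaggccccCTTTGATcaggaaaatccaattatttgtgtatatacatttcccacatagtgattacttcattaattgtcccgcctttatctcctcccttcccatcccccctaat
Axin2: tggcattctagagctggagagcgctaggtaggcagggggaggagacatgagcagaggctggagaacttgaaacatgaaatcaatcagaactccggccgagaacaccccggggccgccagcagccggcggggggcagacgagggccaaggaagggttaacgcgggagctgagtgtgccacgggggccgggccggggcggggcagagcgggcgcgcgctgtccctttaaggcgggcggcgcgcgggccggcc
The T window held 1 match, CTTTGAA on the minus strand 235 to 229 bases before the start. The Sp5 window held 2, CTTTGTT on the minus strand from 222 bases before the start and CTTTGAT on the plus strand from 104 bases before it, and the Axin2 window held 0. Any match was found in 14.8% of the 32851 promoters of that table, and 2 or more in 1.43%. By gene, 6 of the 18 Wnt targets with a promoter in the table held a match (33.3%), against 16.8% of all 27025 genes. A match is a description of letters and not evidence of binding.

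T (chromosome 17, 8434423 to 8442496, plus strand, protein-coding, GRCm38) was sparse in the cells that had it. Of the 129 T-positive cells, 77 had 1 T UMI, 26 had 2, 12 had 3, 8 had 4, 3 had 5 and 3 had 6. The share of T-positive cells was 19.9% (exact binomial interval 16.9 to 23.2%), and T stood at 15.1 CPM (UMIs scaled to a common total of 1000000) over all 648 cells. Cells at 0 made up 80.1%, against 70.1% for a Poisson spread around that mean, so T UMIs were more concentrated in some cells than equal chances would give. The DMSO library at the same depth had 35 T-positive cells of 764 (4.58%, 3.21 to 6.31%), of which 30 had 1 T UMI, 4 had 2 and 1 had 3. The culture holds no cell type known to lack T from which free RNA in droplets could be measured. The part of free RNA in these shares was not tested. Before thinning, T was seen in 27.9% of all Idoxuridine cells at a median of 37425 UMIs per cell, and in 7.27% of DMSO cells at a median of 44502.

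**Figure D1:**
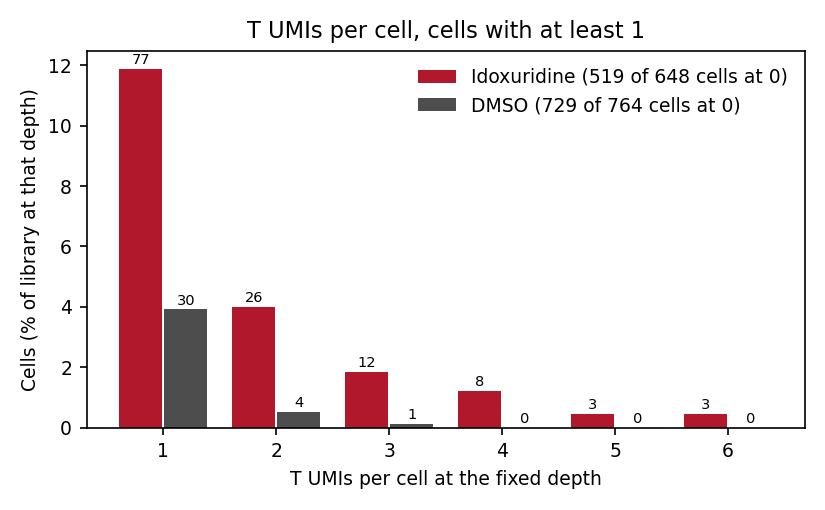
T UMIs per cell among cells with at least 1, at 23500 UMIs per cell; bars give the percent of each library's cells at that depth, and the labels on the bars the number of cells. Most T-positive cells of both libraries had 1 T UMI (77 of 129 in Idoxuridine, 30 of 35 in DMSO), and no DMSO cell had more than 3.

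Cells at 0 were a mixed side. Of the 519 T-zero cells, 69 (13.3%) had a T UMI before thinning, and these were deep cells, with a median of 52334 UMIs. Their Dkk1 level was 40.1 CPM, beside 36.5 CPM in the 77 cells with exactly 1 T UMI and 12.5 CPM in the 450 cells with no T UMI at any depth. Cdx2 stood at 37.6, 50.3 and 21.9 CPM in the same 3 sets, and Sp5 at 321, 286 and 206 CPM. Lef1 was at 16.7, 25.4 and 13.7 CPM, so in the hidden T cells it was nearer to the other T-zero cells, whereas Dkk1, Cdx2 and Sp5 were nearer to the cells with 1 T UMI.

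The T-positive cells carried more mRNA of Wnt target genes. Over 7390 genes with at least 200 UMIs on both sides together, a gene was counted as higher or lower when its log2 ratio (T-positive over T-zero) was at least 0.5 in size and the exact Poisson intervals of its levels did not overlap. By this rule 72 genes (0.974%) were higher and 65 (0.88%) lower in T-positive cells. Of the 12 Wnt targets with that many UMIs, 5 were counted as higher (Sp5, Lef1, Dkk1, Cdx2 and Ascl2) and 0 as lower. Of the 20 with at least 50 UMIs, 18 had a ratio above 0 and their median log2 ratio was 0.37, whereas the median of all 10591 genes with that many UMIs was -0.00 and 5255 of them were above 0.

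Dkk1, a secreted Wnt inhibitor that is itself a Wnt target (chromosome 19, 30545863 to 30549665, minus strand), was at 36.9 CPM in T-positive and 16.2 CPM in T-zero cells, a log2 ratio of 1.19 (0.85 to 1.54). It was seen in 33.3% of T-positive cells and 16.8% of T-zero cells. Cdx2, a homeobox factor of the posterior embryo and the trophectoderm (chromosome 5, 147300805 to 147307270, minus strand), was at 53.8 against 24.0 CPM, a log2 ratio of 1.16 (0.88 to 1.44), and was seen in 55.0% against 32.0% of cells. Most cells of either side had 0 UMIs of Dkk1 at this depth, so its sides overlapped cell by cell although the summed levels stood apart. Lef1, a nuclear partner of beta-catenin (chromosome 3, 131110471 to 131224356, plus strand), was at 31.3 against 14.1 CPM, a log2 ratio of 1.15 (0.77 to 1.52). Sp5, a zinc-finger factor downstream of Wnt (chromosome 2, 70474923 to 70477729, plus strand), was at 333 against 222 CPM, a log2 ratio of 0.59 (0.48 to 0.69), with a highest cell of 52 UMIs on the positive side and 56 on the zero side. These 4 genes were higher in T-positive cells in all 17 alternative settings, and all but Sp5, whose ratio is under 1, met the rule in each of them. Ascl2 was at 20.5 against 13.4 CPM (0.61) but met the rule in only 6 of the 17, and fell short of it in both other random draws of the thinning, at 0.48 and 0.28.

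Other Wnt targets had smaller or less certain ratios. Axin2, the feedback inhibitor that scaffolds beta-catenin breakdown, was at 78.8 against 55.8 CPM, a log2 ratio of 0.50 (0.28 to 0.71) that lay just under the bound of 0.5 before rounding. Nkd1, another feedback inhibitor, was at 17.5 against 8.20 CPM (1.09, 0.58 to 1.59) with under 200 UMIs, and 1 T-positive cell held 14 of its 53 UMIs on that side. Without the highest cell of each side its log2 ratio was 0.72, and in DMSO it had 0 UMIs in T-positive cells. Ccnd1 (0.24), Mycn (0.21), Tcf7 (0.18), Cdx1 (0.28) and Bambi (0.31) were within 0.5. Below 0 stood Ephb3 (-0.26, -1.11 to 0.50) and Rnf43 (-0.13, -1.29 to 0.88), both with intervals that span 0.

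**Figure D2:**
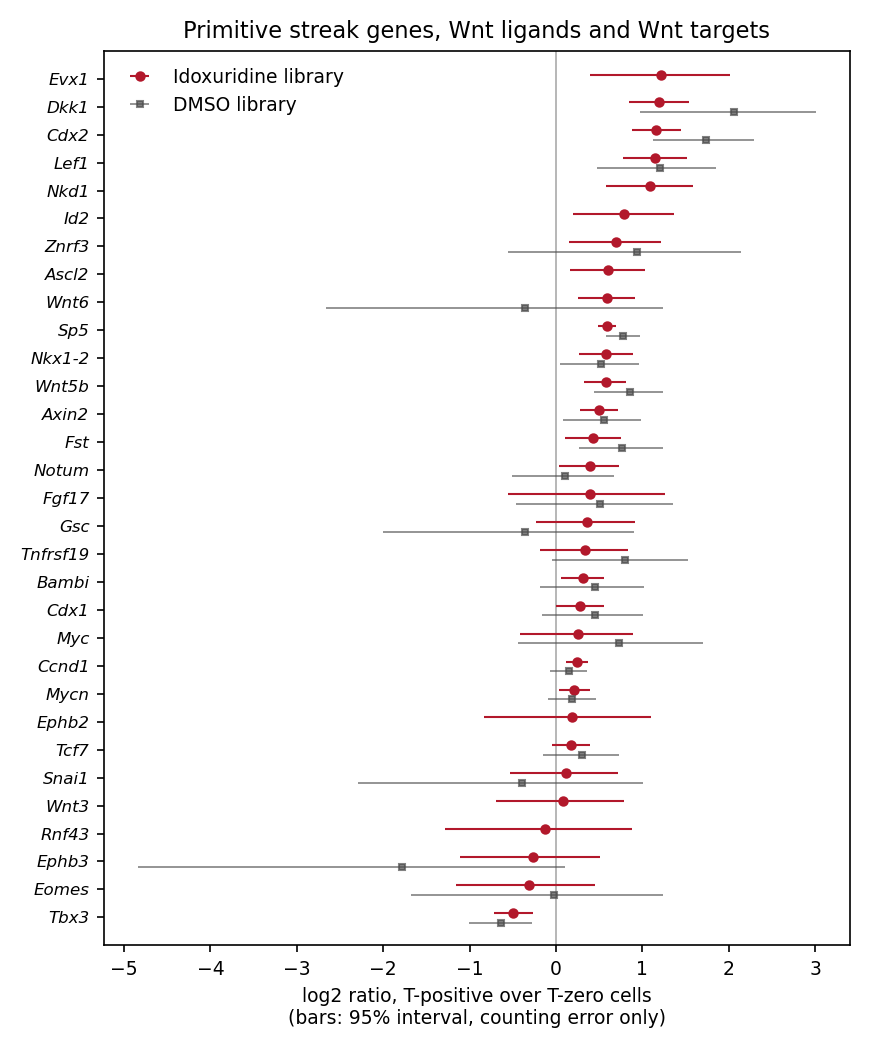
Log2 ratio of T-positive over T-zero cells for primitive streak genes, Wnt ligands and Wnt targets with at least 50 UMIs in the Idoxuridine library; points are ratios of summed UMIs, bars 95% intervals for counting error, and DMSO points are missing where that library had too few UMIs or 0 on a side. Dkk1, Cdx2 and Lef1 lie near 1.2 in Idoxuridine, Wnt3 lies near 0 and Tbx3 lies below 0.

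Cell by cell, T-positive cells had a median of 26 UMIs over the 27 Wnt targets (1 to 82) and T-zero cells 19 (3 to 95). The ranges overlapped almost entirely, and 72.1% of T-positive cells were above the T-zero median. With the cells of the library ordered by this sum and cut into 4 groups, the T-positive share was 9.04% in the lowest group, 16.2% and 20.6% in the middle groups and 35.5% (27.9 to 43.7%) in the highest. In DMSO the same shares were 1.75%, 2.78%, 5.41% and 9.36%. Even in the highest group, most cells had no T UMI at this depth.

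**Figure D3:**
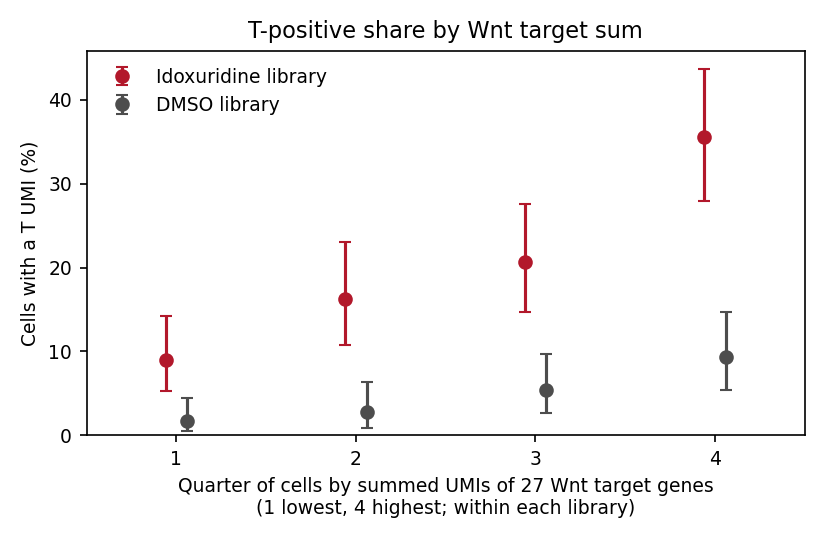
Percent of cells with a T UMI in each of 4 groups of cells ordered by the summed UMIs of 27 Wnt target genes (T not included), for each library; bars are 95% exact binomial intervals. The share is 9.04% in the lowest and 35.5% in the highest group of Idoxuridine cells, and 1.75% and 9.36% in DMSO.

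Within the T-positive side, levels were read against the number of T UMIs. Sp5 was at 222 CPM in cells with 0, 286 with 1, 295 with 2 and 512 (457 to 572) with 3 or more, and still at 458 CPM in the last class without its highest cell. Lef1 was at 14.1, 25.4, 34.4 and 45.8 CPM, and its intervals in neighbouring classes from 1 T UMI upward overlapped. Cdx2 (24.0, 50.3, 57.3 and 60.6 CPM) and Dkk1 (16.2, 36.5, 40.9 and 34.4 CPM) stood apart between 0 and 1 T UMI and overlapped from there on. Wnt6 was at 23.6 and 24.9 CPM with 0 and 1 T UMIs and at 63.8 CPM (45.4 to 87.3) with 3 or more. Sox2, a core pluripotency factor, was at 194 and 193 CPM with 0 and 1 but at 111 (86.4 to 141) with 2 and 119 (93.7 to 150) with 3 or more, classes of 26 cells each. The annotation places Sox2 inside the non-coding Sox2ot on the same strand.

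**Figure D4:**
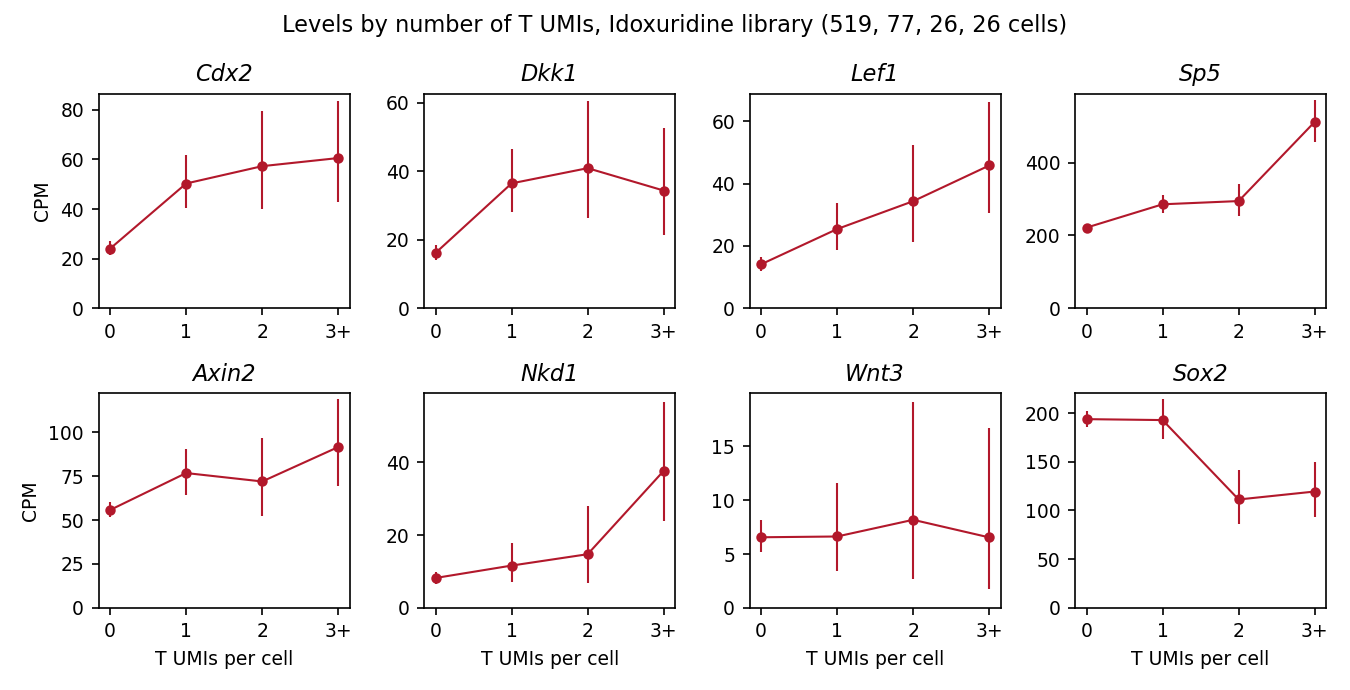
Levels (CPM at the fixed depth, with exact Poisson 95% intervals) by the number of T UMIs per cell, in classes of 519, 77, 26 and 26 Idoxuridine cells. Sp5 is at 222 CPM with 0 and 512 CPM with 3 or more T UMIs, and Dkk1 at 16.2 CPM with 0 and 34.4 to 40.9 CPM in the other classes.

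Primitive streak genes other than T were mostly sparse. Of 29 listed genes, 26 had a UMI and 10 had at least 50, 8 of these had ratios above 0 and the median log2 ratio was 0.37. Of the 5 with 200 UMIs, Sp5 and Nkx1-2 were counted as higher. Sp5, Cdx1, Tbx3, Eomes, Snai1 and Fgf17 are also in other lists, so the lists are not independent. Nkx1-2, a homeobox gene of the caudal embryo, was at 39.6 against 26.4 CPM (0.58), but its ratio was 0.22 and 0.19 in the other random draws, and the annotation places it inside Fgfr2 on the same strand. Evx1, a homeobox gene of the posterior streak, was at 7.26 against 3.12 CPM, a log2 ratio of 1.22 (0.39 to 2.01), on only 60 UMIs.

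Eomes, Gsc and Snai1, streak genes often read beside Brachyury, did not separate the sides. Eomes, a T-box factor of the streak and definitive endoderm, was at 5.61 against 6.97 CPM (-0.31, -1.16 to 0.45). Gsc, an organiser gene, was at 11.9 against 9.26 CPM (0.36, -0.23 to 0.91), and Snai1, a driver of epithelial-mesenchymal transition, at 9.57 against 8.86 CPM (0.11). None of these 3 intervals excludes a ratio of 0. Fst, a secreted inhibitor of activin, was at 35.6 against 26.4 CPM (0.43, 0.10 to 0.75). Tbx3, a T-box factor of naive cells, was at 63.7 against 89.5 CPM (-0.49, -0.72 to -0.27).

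Among ligands, Wnt3 did not separate the sides at the fixed depth. It is the ligand known to start streak formation in the embryo and is named beside T as a marker of these cells. It was at 6.93 CPM in T-positive and 6.56 CPM in T-zero cells, a log2 ratio of 0.08 (-0.69 to 0.79), and was seen in 12.4% and 12.7% of cells. This value was unstable: it was 0.40 and 0.59 in the other random draws and 0.68 in all cells without thinning. The T-zero side was also mixed for Wnt3. Its level was 12.3 CPM in the 69 T-zero cells with a T UMI before thinning and 5.67 CPM in the 450 with none. The lower bound of the first (7.53 CPM) lay above the upper bound of the second (7.30 CPM). Cells with exactly 1 T UMI at the fixed depth were at 6.63 CPM. In DMSO, Wnt3 was at 0 in T-positive and 0.292 CPM in T-zero cells. Wnt5b was at 64.3 against 43.2 CPM (0.57, 0.33 to 0.81) and Wnt6 at 35.6 against 23.6 CPM (0.59, 0.26 to 0.92), both counted as higher. Without thinning both fell short of the rule, at 0.41 and 0.44, and Wnt6 also just missed it in 1 other draw. Of 19 Wnt ligands, these 3 had at least 50 UMIs.

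By their medians, receptors and the intracellular core stood near 0. Of 11 Wnt receptor and secretion genes with 50 UMIs, 7 were above 0, the median log2 ratio was 0.12, and 0 of the 5 with 200 UMIs were counted. The co-receptor Lrp6 was at 26.1 against 26.9 CPM (-0.05). Of 24 core genes 12 were above 0 with a median of -0.01. Beta-catenin (Ctnnb1) had a ratio of 0.07 (-0.05 to 0.18), Axin1 of 0.01 and Apc of -0.06. Gsk3b was at 111 against 132 CPM (-0.24), but at 0.00 and -0.06 in the other draws. Of the 21 core genes with 200 UMIs, Lef1 and Tcf7l2 were counted as higher. Tcf7l2, another Tcf factor, was at 25.1 against 15.6 CPM (0.69) and at 0.26 and 0.61 in the other draws. The core gene Amer1 was at 22.4 against 15.2 CPM (0.56, 0.14 to 0.97), and at 0.63 and 0.62 in those draws. The Poisson intervals of its levels overlapped, so it was not counted. Tcf7l1, the Tcf factor known as a repressor in stem cells, was at 31.0 against 42.5 CPM (-0.45, -0.79 to -0.13), and at -0.35 and -0.05 in those draws.

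Of 11 inhibitors with 50 UMIs, 7 were above 0 with a median of 0.20, and 2 of 3 with 200 UMIs were counted, Dkk1 and Sfrp1. Sfrp1, a secreted decoy for Wnt ligands, was at 45.9 against 31.6 CPM (0.54), but at 0.08 and 0.22 in the other draws. Dkk4 was at 8.91 against 4.26 CPM (1.06, 0.34 to 1.76) on 79 UMIs, and Znrf3, which removes Frizzled from the membrane, at 14.2 against 8.77 CPM (0.69). The Wnt target Notum, which strips the lipid from Wnt ligands, was at 30.7 against 23.4 CPM (0.39, 0.04 to 0.74).

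The same split by T was made in the DMSO library, whose cells the rule does not use. There 58 of 7348 genes (0.789%) were counted as higher and 71 (0.966%) as lower on 35 T-positive cells. Genes counted as higher in both libraries were Cdx2, Lef1, Peg3, Sp5 and Wnt5b, 6.94% of the 72 in Idoxuridine and 8.62% of the 58 in DMSO, and 40 of the 72 had enough UMIs in DMSO. Of the 65 genes counted as lower in Idoxuridine, 60 had enough UMIs in DMSO. Of these, 0 were counted as lower there, beside 0.966% of all genes. The DMSO ratio had the same sign for 39 of these 60, and for 26 of the 40 higher genes. The DMSO log2 ratios were 1.73 for Cdx2, 1.20 for Lef1, 0.78 for Sp5 and 0.55 for Axin2, and 2.06 (0.98 to 3.01) for Dkk1 on too few UMIs to be counted. Of 16 Wnt targets with 50 UMIs in DMSO, 14 were above 0 with a median of 0.50, and below 0 were Ephb3 and Nkd1. Ephb3 was at -1.78 (-4.84 to 0.10) on 2 UMIs in T-positive cells. Nkd1 had 0 UMIs in T-positive cells (upper bound 4.48 CPM) and 61 in T-zero cells (3.56 CPM). Neither interval excludes equal levels. Tbx3 (-0.63) and Tcf7l1 (-1.19) were counted as lower in DMSO, and the streak gene Fst (0.77, 0.27 to 1.24) as higher. Whether the ratios differ between the libraries was not tested.

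Outside the Wnt lists, the largest ratio was that of Pdlim4, a PDZ and LIM domain protein bound to actin (chromosome 11, 54054928 to 54069014, minus strand), at 32.3 against 10.2 CPM (1.66, 1.26 to 2.05) and seen in 37.2% against 15.2% of cells. With 2 or more T UMIs as the cut (1.60) or without the deepest cells (1.82) it was not counted, since it then had 163 and 191 UMIs, under the minimum of 200. In DMSO it was at 0 in T-positive cells and at 1.05 CPM in T-zero cells, levels too low for so few T-positive cells to tell apart. Peg3, a paternally expressed imprinted gene, was at 69.6 against 31.2 CPM (1.16, 0.91 to 1.41), and at 35.3 against 18.0 CPM (0.97) in DMSO. Emb, the adhesion protein embigin, was at 72.2 against 32.4 CPM (1.16), with 36 of its UMIs in 1 cell and a ratio of 0.94 without the highest cell of each side. The remaining 5 of the 12 highest outside the Wnt lists with ratios that met the rule in every draw were Cyp1a1 (0.95), Lgals9 (0.88), Ube2l6 (0.87), Igfbp4 (0.84) and Plet1 (0.84), of which the last 2 were at 0.47 and not counted without thinning. Bard1 (0.82), the BRCA1 partner, did not, at 0.15 and 0.27.

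**Figure D5:**
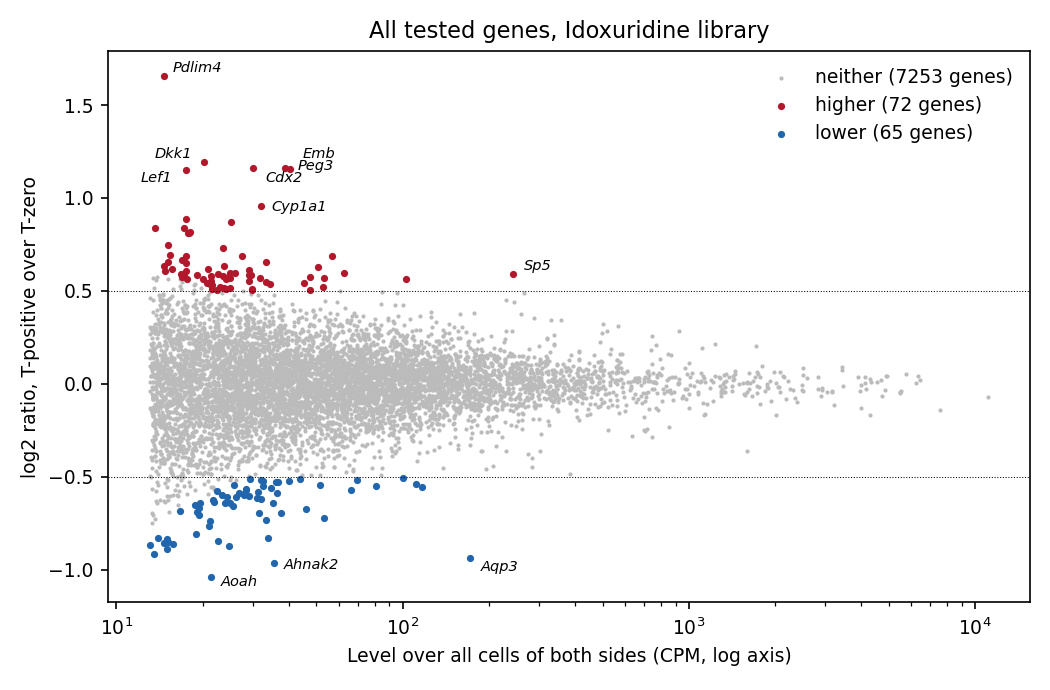
Log2 ratio (T-positive over T-zero) against the summed level for all genes with at least 200 UMIs in the Idoxuridine library; colours mark genes counted as higher (72) or lower (65). Pdlim4 (1.66) is the highest, and Dkk1, Cdx2, Lef1, Emb and Peg3 follow between 1.15 and 1.19.

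Among the genes counted as lower, Aqp3, a water and glycerol channel (chromosome 4, 41092722 to 41098183, minus strand), was at 99.3 against 190 CPM (-0.94, -1.12 to -0.76). One T-zero cell held 72 of its UMIs, yet the T-zero level was 185 CPM without that cell. The lowest ratios were Aoah (-1.04) and Ahnak2 (-0.96), and the other 9 of the 12 lowest ran from -0.91 (Fsd1) to -0.84 (Dync2li1). Aqp3 and Ahnak2 met the rule in all 3 draws, but Aoah was at -0.47 in 1 other draw, and of the other 9 all but Itpka fell short in at least 1, with March8 at -0.17, Pcbd2 at -0.26 and Pde4d at -0.30. Lists of genes past the rule depended on the draw: 25 of the 72 higher and 9 of the 65 lower genes were counted with all 3 random seeds. Without the highest cell of each side for each gene, 45 genes were higher.

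Pluripotency genes mostly had ratios a little below 0, with 0 of 14 general pluripotency genes past the rule. Of 15, 2 were above 0 and the median was -0.13. Nanog was at 187 against 241 CPM (-0.36, -0.49 to -0.23), Sox2 at 162 against 194 CPM (-0.26) and Zfp42 (Rex1) at 611 against 728 CPM (-0.25). In DMSO the ratios were -0.40 for Nanog, 0.12 for Sox2 and -0.09 for Zfp42. The 22 naive genes had a median of -0.17 with 8 above 0. Among those below 0, Fgf4 was at -0.44, and at -0.52 and -0.58 in the other draws. Esrrb was at -0.43, but at -0.05 and -0.32 in the other draws. Dppa3, a germ cell and naive gene, went the other way at 139 against 93.7 CPM (0.56), and at 0.30 and 0.55 in the other draws. Nearly every cell of both sides carried pluripotency mRNA, as Zfp42 was seen in 100% of T-positive and 99.4% of T-zero cells.

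The sides differed in cell cycle phase. By gene scores 65.1% of T-positive cells (84 of 129) were called G2/M, against 46.4% of T-zero cells (241 of 519). Read the other way, 25.8% of G2/M cells and 14.2% of S-phase cells were T-positive. Of 54 G2/M genes, 50 had ratios above 0 with a median of 0.20, but the phase scores use these same genes. In DMSO, 42.9% of T-positive cells (26.3 to 60.6%) and 34.8% of T-zero cells (31.4 to 38.4%) were called G2/M. Idoxuridine T-zero cells were also weighted to the phases of the T-positive cells. The log2 ratios were then 1.04 for Dkk1, 1.04 for Cdx2, 1.06 for Lef1, 0.51 for Sp5 and 1.54 for Pdlim4. Smaller ratios moved more: Fst was at 0.19, against 0.43 unweighted, and Bambi at 0.16, against 0.31. Median UMIs per cell before thinning were 41189 against 39107, mitochondrial shares 2.79% against 2.80% and ribosomal protein shares 13.5% against 13.7%. RNAs held in the nucleus, such as Malat1, made up 0.421% against 0.494%, and their part in the other results was not tested beyond the same kind of weighting, under which Dkk1 was at 1.23 and Cdx2 at 1.17.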

How the data were processed

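The authors deposited UMI counts per gene and cell barcode for 2 libraries (10x 3′ V2 chemistry, per the labels). Cell Ranger 2, Seurat and mm10 are named, with no role, per the submitters' processing notes; cell calling and annotation are not given in the sources used here. No barcode of the 1553 was filtered out, and 2 barcodes occur in both libraries. Totals were 30454626 UMIs (Idoxuridine) and 40818344 (DMSO).

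Each cell was thinned without replacement (seed 1) to 23500 UMIs (the 10th percentile of cell depth over both libraries, rounded down to a multiple of 500), which left out 94 Idoxuridine and 47 DMSO cells. UMIs were summed per side and given as CPM with exact Poisson intervals. Log2 ratios have exact conditional binomial intervals, and shares have Clopper-Pearson intervals. These treat UMIs as independent molecules. Medians of lists use genes with at least 50 UMIs. Phases came from scanpy 1.11.5 with the Seurat lists. Positions are from GENCODE M21 (98.7% of 27998 gene IDs matched); genes on the other strand overlap several of them, and strand use in counting is not given in the sources used here. No doublet caller was run on this 1 cell type; leaving out the deepest 10 percent of cells was an alternative instead. The script was tested on simulated data.

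Genes named were members of the primitive streak and Wnt lists with at least 50 UMIs, the 12 highest and 12 lowest ratios past the rule, and up to 4 members of each other list with the largest ratios and at least 200 UMIs. The sides and all 28 lists were chosen with earlier results of these data known. Alternatives changed the draw, T cut, depth, scaling (including TMM from edgeR 4.0.16), minimum, size and interval rules, cell quality and the weighting of T-zero cells. No protein sequences were used here.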

Additional observations from a re-analysis of the deposited data

How the results depend on the processing

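Of 17 alternatives, the weighting by depth before thinning was chosen after seeing the data. With 2 or more T UMIs as the cut, 130 genes were higher and 117 lower. Without thinning, 110 were lower (the higher share of all counted genes was 40.5%, against 52.6%) and T was seen in 27.9% of cells. A minimum of 50 UMIs gave 126 higher genes, and no minimum gave 159 (62.8% of counted genes). A log2 ratio of at least 1 left 6 higher and 1 lower, no interval rule gave 112 lower, and leaving out the highest cell of each side gave 45 higher (32.6%). The cause of these moves was not tested beyond what each rule does by construction. Other counts stayed within 1.5 times the values reported. Of the counted genes, 2 of the 72 higher and 6 of the 65 lower changed sign under at least 1 alternative, none of them among the 39 counted genes that the naming rule covers. The median log2 ratio ran from 0.31 to 0.52 for Wnt targets, 0.19 to 0.49 for streak genes, -0.17 to -0.09 for general and -0.24 to -0.08 for naive pluripotency, and -0.05 to 0.08 for the Wnt core. TMM moved all log2 ratios by -0.02 and median-of-ratios scaling by -0.01. Cdx2, Dkk1, Lef1, Emb and Peg3 met the rule in every alternative. With 23500 UMIs per cell, a cell at 0 may still carry T. No paired analysis was possible because each treatment is 1 library and the sides are cells of that library.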

Other observations

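Lists outside the Wnt and streak genes also held genes counted as higher, a rule that 0.974% of all genes met. Of 9 trophectoderm genes with 200 UMIs, Cdx2, Ascl2 and Plet1 were higher in T-positive cells, but Cdx2 and Ascl2 are also in the Wnt target list. The median log2 ratio of 12 was 0.40, with 4 below 0, and in DMSO the median of 8 was 0.14. Of 11 genes of simple epithelium, Cldn6 (81.5 against 50.6 CPM, 0.69), Cldn3 (0.62) and Krt19 (0.57) were higher and Lgals3 (-0.55) lower. Cldn3 and Krt19 fell short in 1 of the other draws, at 0.33 and 0.32, and Lgals3 in both, at -0.17 and -0.35. In DMSO, Cldn6 was at 3.65 against 7.06 CPM on only 3 UMIs in T-positive cells, with a log2 interval of -3.25 to 0.63 that spans 0. Imprinted genes higher in T-positive cells were Peg3, Phlda2 (85.8 against 56.8 CPM, 0.59), Cdkn1c (0.51) and Ascl2, 4 of 15. Phlda2 fell short with 1 other draw (0.33), Cdkn1c in 8 of the 17 alternatives (0.28 with 1 other draw) and Ascl2 in 11. Epcam, an epithelial adhesion protein, was at 344 against 245 CPM (0.49, 0.38 to 0.59).

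Targets of p53, the factor that answers DNA damage, had a median log2 ratio of -0.15, with 6 of 34 above 0 and 0 of 27 counted. Tigar was at 74.9 against 96.2 CPM (-0.36, -0.57 to -0.15), but at -0.23 in both other draws and -0.12 without thinning. Polk was at -0.64, and at -0.80 and -0.60 in the other draws. In DMSO the median was -0.05, with 13 of 32 above 0. Nodal pathway genes had a median of -0.11, with 5 of 14 above 0 and 0 of 9 counted as lower. Skil was counted as higher (0.69), but was at 0.25 in both other draws. Nodal was at 63.7 against 83.5 CPM (-0.39) in Idoxuridine, where it was not counted, and at 49.8 against 79.4 CPM (-0.67) in DMSO. The neuronal tubulin Tubb3 was at 150 against 207 CPM (-0.46), and at -0.51 in DMSO.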
